A study of Rattus norvegicus with 24 samples.

Results

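Rat liver constructs kept in culture for 15 days after seeding were compared with constructs kept for 2 days, 4 constructs at each time and 8 of the 19 samples of the series, which were chosen by their labelled day. Each construct was the caudate lobes of a decellularized rat liver, cleared of cells with detergent and DNase, into which liver cells of adult Sprague Dawley rats had been perfused through the portal vein. The cells had been isolated by collagenase digestion and passed through Percoll, and the constructs of both days were perfused with the same medium, which held serum, insulin and dexamethasone. Whole cadaveric rat liver, taken without any culture (n = 4), served as the level toward or away from which each change was read. The labels call the cells hepatocytes, the methods call them parenchymal liver cells, and neither gives the sex of the donors or says whether the constructs came from separate cell isolations, so the p-values below measure the spread between these constructs. Day 28 constructs entered the fit only to share the estimate of the spread, and freshly isolated hepatocytes were used only as an alternative point of reference.

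Hepatocytes carry out most of the metabolism of the liver. They secrete the plasma proteins, make bile acids from cholesterol, detoxify drugs with cytochrome P450 and conjugating enzymes, and dispose of nitrogen as urea. Outside the liver they are known to lose part of this program while cytoskeletal and progenitor genes come on, and matrix in the liver is made mainly by stellate cells and fibroblasts rather than by hepatocytes. The comparison of day 15 with day 2 therefore asks which of these programs were higher or lower after the later culture period, and whether each change left the constructs nearer to or farther from whole liver.

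RNA was measured on Illumina bead arrays for the rat, and all values are log2 intensities after the background correction and quantile normalization of the authors. The 4 day 15 constructs were hybridized on 5 arrays and the 4 day 2 constructs on 6, because 1 and 2 of them had technical duplicate arrays, which were averaged. Between 47.6% and 49.4% of all probes were detected above background on the day 15 arrays, against 45.4% to 47.0% on the day 2 arrays. Of 13793 probes with a gene name, 8457 passed the detection filter and 5336 did not, and 8283 genes were tested, each by its brightest probe. The lowest values that counted as detected lay at 4.90 to 4.96 on day 15 and at 4.98 to 5.05 on day 2, and the scale ended at 15.0, so changes near either end are compressed.

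The hepatocyte label was checked with 8 defining markers, of which Apoa1 had no named probe and 7 were tested. All 7 were detected on every array of both days, and albumin (Alb) read 14.78, 14.77, 14.88 and 14.69 on day 15, against 14.68, 14.76, 14.61 and 14.79 on day 2 and 14.73, 14.80, 14.78 and 14.86 in cadaveric liver. Those values overlap near the top of the scale (log2 change 0.07, SE 0.08, adjusted p = 0.5 by limma's moderated test), whereas a second, dimmer albumin probe gave a log2 change of 0.37 with an adjusted p of 0.0013. Among the hepatocyte markers Ttr was higher on day 15, and Hnf4a and Cyp2e1 were lower. Of 26 genes of a wider adult hepatocyte list 8 were higher (30.8%) and 6 lower (23.1%), against 21.4% and 27.7% of all genes. Their mean level was 10.84 to 11.06 on day 15, 10.93 to 11.20 on day 2 and 13.09 to 13.31 in cadaveric liver. Of 7 defining markers of endothelial cells only Cdh5, Lyve1, Vwf and Tek had a named probe. These 4 were detected on no day 15 array, Lyve1 was detected on 1 of 6 day 2 arrays and the other 3 on none, and only Cdh5 was also undetected in cadaveric liver. Their summed level was 6.47 to 6.53 on day 15, 6.47 to 6.76 on day 2 and 10.72 to 10.98 in cadaveric liver.

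The day 15 constructs fell into 2 pairs, a fact that touches every matrix result below. Replicates 1 and 2 correlated with each other at r = 0.993 across genes and replicates 3 and 4 at r = 0.994, whereas the correlations between the pairs lay between 0.967 and 0.980. All pairs of day 2 constructs correlated at 0.989 to 0.995. In 250 genes both replicates 1 and 2 of day 15 lay at least 1 log2 unit above both replicates 3 and 4, and in 24 genes the reverse held. The SD exceeded 1 in 200 genes among the day 15 constructs and in 14 among the day 2 constructs, while the median SD was 0.17 and 0.15. The labels give no reason for this split and none was tested. Where a named gene lost its call or its direction relative to liver without replicates 1 and 2 or without replicates 3 and 4, this is said beside it, and for several genes that differ between the pairs the change is given under both.

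At an adjusted p under 0.05, 4065 genes (49.1%) changed between day 15 and day 2, of which 1770 (21.4%) were higher and 2295 (27.7%) lower on day 15. The counts of gene lists below are to be read against these shares. The larger changes ran mostly upward. A fitted change of at least 2-fold was found in 664 higher and 230 lower genes, and one of at least 8-fold in 101 higher and 4 lower genes. Of the higher genes 289 were detected on no day 2 array, and of the lower genes 27 on no day 15 array. The filter let a gene pass through constructs of a later day, and a gene at background on day 2 could hardly be called lower. Counts of marker and matrix lists rest partly on this. Tested were 23 of 28 stellate cell and fibroblast genes with a probe, 18 of 34 endothelial and 10 of 16 mesothelial genes. The 2 sets of constructs did not overlap in 3701 genes (44.7%), and 3494 of these were called. Without day 15 replicates 1 and 2 the count of changed genes was 3127 (1512 higher, 1615 lower), and without replicates 3 and 4 it was 4025 (1697 higher, 2328 lower), with 2929 and 3459 of the original calls kept in the same direction.

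Every changed gene was placed relative to the cadaveric liver mean, with no test of the placing because both distances share that mean. Of the 4065 changed genes, 2318 (57.0%) lay closer to cadaveric liver on day 15 than on day 2 and 1747 lay farther, against 53.7% closer among all genes tested. Where the distance moved by at least 1 log2 unit the 2 directions were nearly equal, with 342 changed genes closer and 327 farther. The lower genes leaned toward whole liver and the higher genes did not. Of the lower genes 1524 (66.4%) came closer and 771 moved farther, whereas of the higher genes 794 (44.9%) came closer and 976 moved farther. The placing depends on the day 2 level. A gene below liver comes closer by rising and one above it by falling, unless it passes far beyond. Some genes crossed the cadaveric level. Among higher genes 544 moved toward it without reaching it, 250 passed it and ended closer, 356 passed it and ended farther and 620 moved directly away. Among lower genes the numbers were 1085, 439, 300 and 471. In a fit of all 5 groups over 8825 genes, 60.6% differed from cadaveric liver on day 2 and 58.0% on day 15. Of the changed genes that came closer, 2187 had differed from cadaveric liver on day 2, and 1124 of these no longer differed on day 15. In the other direction, 891 of the changed genes that moved farther had not differed from cadaveric liver on day 2 and did so on day 15.

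The constructs as wholes did not separate by day in their distance from liver. The mean absolute log2 difference from the cadaveric mean over 8825 genes was 0.754, 0.766, 0.729 and 0.715 in the day 15 constructs, against 0.748, 0.749, 0.802 and 0.773 in the day 2 constructs. For the cadaveric livers themselves, each set against the mean of the other livers, it was 0.205 to 0.237. The construct values overlap and lie more than 3 times as far out as those of liver. Measured against freshly isolated hepatocytes instead, the day 15 constructs lay at 0.738 to 0.848 and the day 2 constructs at 0.681 to 0.733, with no overlap, and the majority of changed genes turned, since 1903 came closer to hepatocytes and 2162 moved farther.

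**Figure D1:**
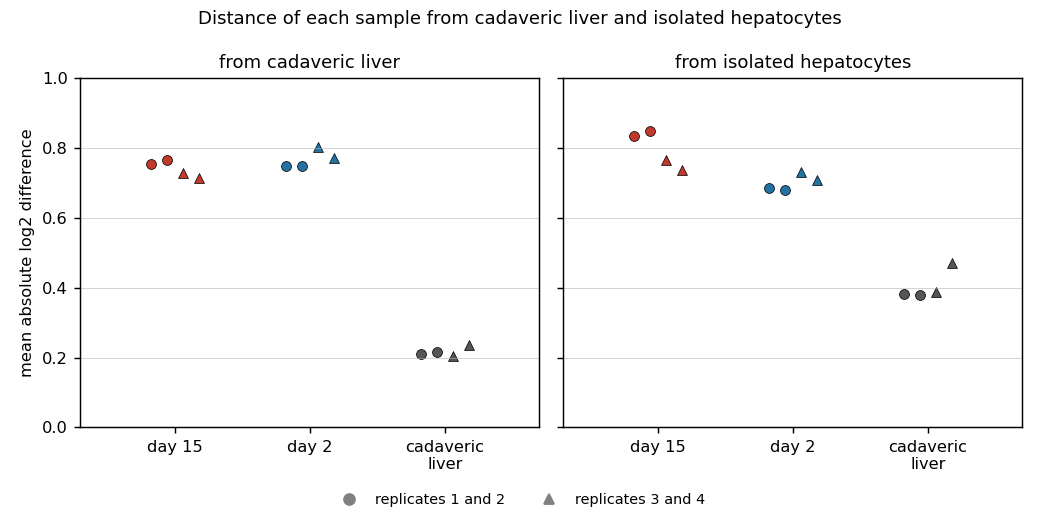
Mean absolute log2 difference of each sample from the mean of cadaveric liver (left panel) and of freshly isolated hepatocytes (right panel), for day 15 constructs, day 2 constructs and cadaveric livers, 1 point per sample, with replicates 1 and 2 as circles and 3 and 4 as triangles. In the left panel each cadaveric liver is set against the mean of the other cadaveric livers. Day 15 and day 2 constructs lie together between 0.715 and 0.802 in the left panel and separate in the right panel, where the lowest day 15 construct lies at 0.738 and the highest day 2 construct at 0.733.

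**Figure D2:**
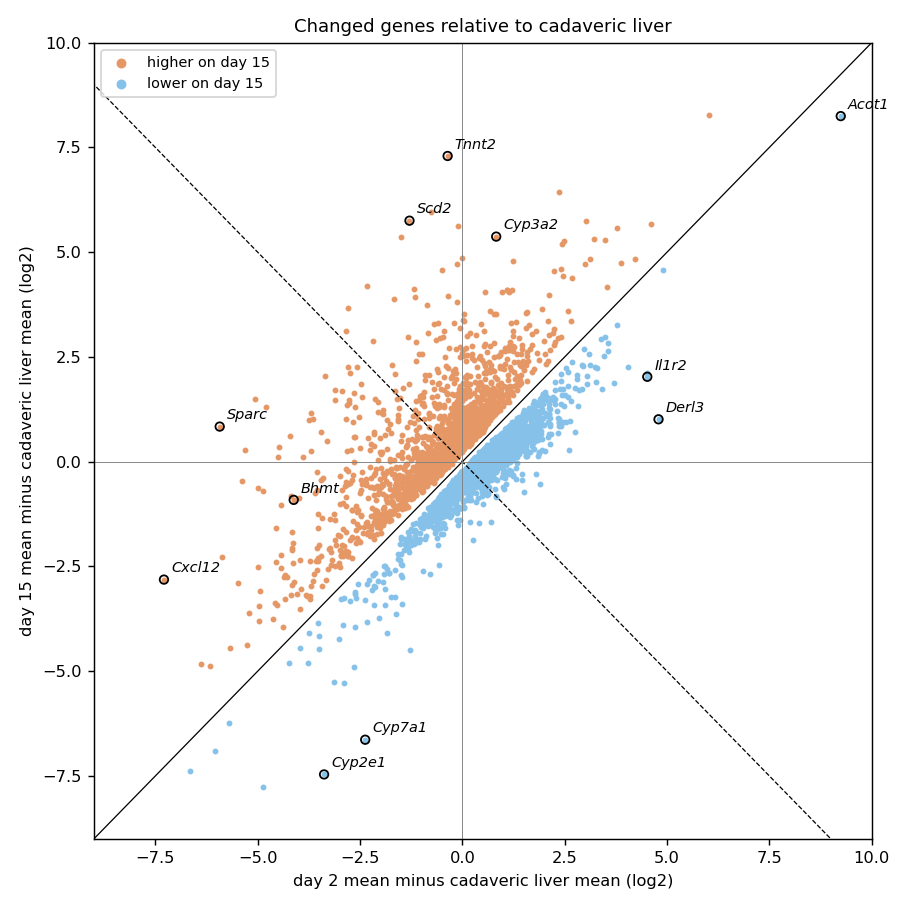
Distance of each of the 4065 changed genes from cadaveric liver on day 15 (vertical axis, log2) against that on day 2 (horizontal axis, log2), with genes higher on day 15 in orange and lower in blue. Genes between the solid and the dashed diagonal that hold the horizontal axis came closer to cadaveric liver, as Sparc, Cxcl12, Bhmt and Derl3 did, and those in the other sectors moved farther, as Tnnt2, Scd2, Cyp3a2, Cyp7a1 and Cyp2e1 did.

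Among plasma protein genes the rises outnumbered the falls. Of 30 plasma protein genes tested 13 were higher (43.3%) and 1 lower (3.33%), with a median log2 change of 0.21 against -0.07 over all genes, and 16 were not called. All 13 that rose came closer to cadaveric liver. The median gene of the list stood at -1.10 relative to liver on day 2, so most rises would lead closer. Fetuin A (Ahsg), a calcium-binding serum protein, read 14.82, 14.73, 14.75 and 14.76 on day 15, against 13.94, 14.05, 13.83 and 14.05 on day 2 and 14.69, 14.72, 14.64 and 14.70 in cadaveric liver (log2 change 0.80, SE 0.08, adjusted p = 1.6e-05). The days do not overlap and day 15 reached the level of liver (adjusted p = 0.37 against it). Retinol-binding protein 4 (Rbp4), which carries vitamin A in blood, did likewise with 9.17, 8.86, 9.35 and 9.21 on day 15, 7.17, 7.34, 6.45 and 6.67 on day 2 and 9.04, 8.89, 8.94 and 8.84 in cadaveric liver (log2 change 2.24, SE 0.24, adjusted p = 3.3e-05). Transthyretin (Ttr), Itih4 and histidine-rich glycoprotein (Hrg) were higher by 0.66, 1.38 and 1.21 on the log2 scale. The exception was corticosteroid-binding globulin (Serpina6), at 6.53, 5.59, 7.25 and 6.89 on day 15, 8.63, 9.36, 9.57 and 10.28 on day 2 and 14.38, 14.35, 14.31 and 14.27 in cadaveric liver, a fall of 7.43-fold away from liver (adjusted p = 0.00012). Its other probe, however, gave a log2 change of -0.20 with an adjusted p of 0.22.

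Complement and coagulation factors were likewise more often higher. Of 32 tested 18 were higher (56.3%) and 5 lower (15.6%), and 17 of the 18 came closer to liver while all 5 that fell moved farther. The median gene of the list stood at -2.09 relative to liver on day 2, so that split follows largely from the starting level. Plasma prekallikrein (Klkb1), the zymogen of the contact pathway, gave 9.94, 9.97, 10.44 and 10.37 on day 15, against 7.99, 8.01, 7.90 and 8.37 on day 2 and 12.40, 12.46, 12.06 and 12.01 in cadaveric liver (log2 change 2.11, SE 0.19, adjusted p = 1.2e-05). It covered about the middle of the gap to liver, from which it still differed on day 15 (adjusted p = 1.3e-08). Complement C6, part of the membrane attack complex, rose by 1.96 log2 units, C4b by 1.25, plasminogen (Plg) by 1.20 and alpha-2-antiplasmin (Serpinf2), which inhibits plasmin, by 1.04. Mannose-binding lectin 2 (Mbl2), a pattern recognition protein, went the other way, with 6.71, 7.21, 7.57 and 7.73 on day 15, 9.43, 9.61, 8.96 and 9.26 on day 2 and 10.98, 10.89, 11.28 and 10.64 in cadaveric liver (log2 change -2.01, SE 0.21, adjusted p = 3.0e-05). Lipopolysaccharide-binding protein (Lbp), an acute phase protein, rose away from liver, with 13.06, 12.81, 12.81 and 12.56 on day 15, 11.17, 11.28, 10.66 and 10.67 on day 2 and 8.93, 8.75, 8.83 and 8.80 in cadaveric liver. The fibrinogen chain Fgb was higher by 0.72 (adjusted p = 0.008), a call that was lost without day 15 replicates 1 and 2 (log2 change 0.55, adjusted p = 0.078).

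The cytochrome P450 enzymes moved in both directions. Of 47 tested 15 were higher and 15 lower (31.9% each, against 21.4% and 27.7% of all genes). Of these 30, 12 came closer to cadaveric liver and 18 moved farther. The largest rise was that of Cyp1b1, a P450 better known outside hepatocytes, which was detected on no array of day 2 or of cadaveric liver and read 10.42, 10.67, 8.50 and 7.88 on day 15, at least 20.3-fold above day 2. It was higher in replicates 1 and 2 than in replicates 3 and 4 of day 15, with a log2 change of 3.69 without replicates 1 and 2 and 6.05 without replicates 3 and 4. Cyp3a2, a steroid hydroxylase of rat liver, read 10.86, 10.61, 10.11 and 10.12 on day 15, against 6.93, 5.81, 5.60 and 5.18 on day 2 and 4.47, 5.33, 4.65 and 5.76 in cadaveric liver (log2 change 4.54, SE 0.33, adjusted p = 3.4e-06). It thus left a level that did not differ from liver on day 2 (adjusted p = 0.089) for one 23.3-fold higher. Its relative Cyp3a9 was lower, with overlapping days (log2 change -2.25, SE 0.57, adjusted p = 0.007), and was not called without day 15 replicates 3 and 4 (adjusted p = 0.054).

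Cyp2e1, an ethanol-oxidizing enzyme of the pericentral zone, fell by 17-fold. It read 7.87, 7.22, 7.58 and 6.22 on day 15, against 11.07, 10.50, 11.88 and 11.78 on day 2 and 14.53, 14.81, 14.69 and 14.71 in cadaveric liver (log2 change -4.09, SE 0.38, adjusted p = 1.4e-05), so a gene that was already low on day 2 moved farther from liver. The fatty acid omega-hydroxylases of the Cyp4a family fell as well, but toward liver. Cyp4a2 read 9.83, 9.19, 9.30 and 10.19 on day 15, 11.97, 11.83, 12.24 and 12.11 on day 2 and 10.14, 10.32, 10.20 and 9.94 in cadaveric liver, and Cyp4a1 and Cyp4a3 had log2 changes of -1.63 and -1.88, all 3 ending somewhat below the cadaveric mean. Without day 15 replicates 3 and 4 Cyp4a1 ended farther from liver (log2 change -1.81). The Cyp4a genes are close in sequence, so their probes may share signal.

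Genes known to differ between male and female rat liver went both ways. Of 15 tested 7 were higher (46.7%, against 21.4% of all genes) and 4 lower (26.7%, near the 27.7% of all genes). Cyp3a2 and Cyp4a2, described above, are among them. Cyp2c12, the female-specific steroid sulfate hydroxylase, read 12.83, 13.02, 13.27 and 13.91 on day 15, against 14.14, 14.50, 13.94 and 14.67 on day 2 and 14.79, 14.65, 14.80 and 14.77 in cadaveric liver (log2 change -1.05, SE 0.22, adjusted p = 0.0026). Cyp2c11, the male-specific counterpart, was detected on no day 2 array and read 6.42, 6.18, 8.40 and 7.72 on day 15, at least 4.44-fold higher, against 4.67, 5.38, 4.95 and 5.61 in cadaveric liver. Its log2 change was 3.36 without day 15 replicates 1 and 2 and 1.60 without replicates 3 and 4. Neither gene overlapped between the days, and both ended farther from the cadaveric level. Stat5b, the growth hormone signal transducer on which sex-dependent P450 expression is known to rely, was lower (log2 change -1.60, SE 0.19, adjusted p = 5.4e-05), at a level that did not differ from liver (8.10, 7.83, 8.33 and 8.48 on day 15, 9.53, 9.47, 9.95 and 10.17 on day 2, 8.30, 8.57, 8.69 and 8.56 in cadaveric liver).

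**Figure D3:**
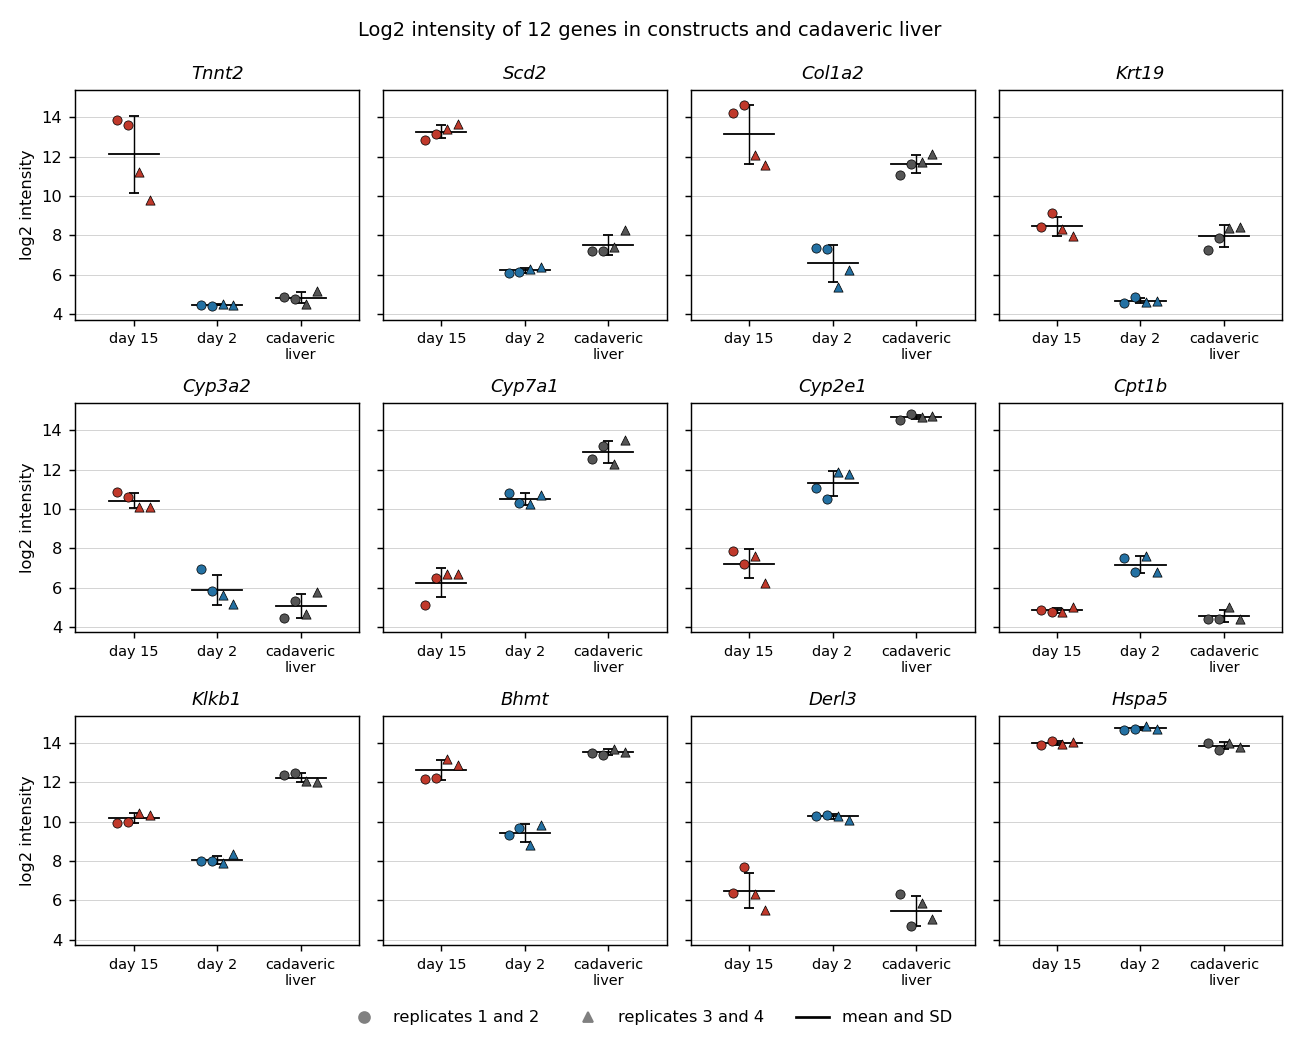
Log2 intensity of 12 genes (vertical axes) in day 15 constructs, day 2 constructs and cadaveric liver, 1 point per sample with replicates 1 and 2 as circles and 3 and 4 as triangles, and the mean with its SD in black. Tnnt2 and Col1a2 show day 15 replicates 1 and 2 above replicates 3 and 4, Scd2 and Cyp3a2 lie above both other groups on day 15, Cyp7a1 and Cyp2e1 lie below both, and Klkb1, Bhmt, Cpt1b, Derl3 and Hspa5 lie nearer to cadaveric liver than on day 2.

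Bile acid genes moved in both directions, among synthesis enzymes and among transporters alike. Of 24 tested 9 were higher (37.5%, against 21.4% of all genes) and 8 lower (33.3%, against 27.7%). The lower count was 5 without day 15 replicates 1 and 2. All 9 that rose came closer to liver while 7 of the 8 that fell moved farther. With the median gene at -2.16 relative to liver on day 2, that split follows largely from the starting level. Cyp7a1, the rate-limiting enzyme of the classic pathway, had the largest fall of the comparison. It read 5.13, 6.47, 6.70 and 6.68 on day 15, against 10.81, 10.28, 10.23 and 10.71 on day 2 and 12.55, 13.21, 12.27 and 13.50 in cadaveric liver (log2 change -4.26, SE 0.38, adjusted p = 1.0e-05), 19.2-fold lower and away from liver. Cyp8b1, the 12-alpha-hydroxylase needed for cholic acid, moved the opposite way, with 10.29, 11.03, 10.65 and 11.31 on day 15, 8.25, 8.33, 8.14 and 8.58 on day 2 and 13.06, 13.64, 13.13 and 13.47 in cadaveric liver (log2 change 2.49, SE 0.24, adjusted p = 1.9e-05). Akr1d1, the reductase shared by both branches, rose by 1.54 and Abcg5, which with its partner exports sterols into bile, by 2.13, to a level that did not differ from liver (adjusted p = 0.6). Of the uptake transporters, Slc10a1 was higher (log2 change 0.94) and Slco1b2 lower (-0.86). Baat, which conjugates bile acids to amino acids, was lower (-1.48).

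Among conjugating enzymes 17 of 39 were higher and 5 lower, and here 14 of the 22 changes led away from liver. The pi class glutathione transferase Gstp1, which adult rat hepatocytes barely express and preneoplastic ones do, read 13.42, 13.09, 12.66 and 13.18 on day 15, against 9.26, 10.53, 10.85 and 10.69 on day 2 and 9.57, 9.59, 9.41 and 9.64 in cadaveric liver (log2 change 2.76, SE 0.36, adjusted p = 0.00011). Gstm3 likewise rose by 2.19 away from liver, whereas Gsta4, which acts on products of lipid peroxidation, rose by 1.60 to a level that did not differ from liver (adjusted p = 0.11). Gsto1 fell by 0.81. Carboxylesterases were split, with Ces1d and Ces1c lower (log2 change -3.21 and -2.37) and Ces2c higher (2.13), all 3 away from liver.

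Fatty acid oxidation genes were more often lower. Of 43 tested 23 were lower (53.5%) and 4 higher, with a median log2 change of -0.46, and 19 of these 27 ended closer to cadaveric liver. Of the 23 that fell 15 came closer, a share near the 66.4% of all lower genes. The median distance of the list from liver was 0.31 on day 2 and -0.40 on day 15, on the other side of the cadaveric level. The muscle isoform of carnitine palmitoyltransferase 1 (Cpt1b), which controls entry of fatty acids into mitochondria, read 4.88, 4.75, 4.74 and 5.01 on day 15, against 7.48, 6.79, 7.60 and 6.80 on day 2 and 4.41, 4.41, 5.02 and 4.38 in cadaveric liver (log2 change -2.32, SE 0.22, adjusted p = 1.4e-05). It was detected on every day 2 array, on 1 of 5 day 15 arrays and on none of liver. The acyl-CoA thioesterase Acot1 stood far above liver on both days, at 13.30, 11.91, 12.71 and 13.23 on day 15 and 14.05, 13.57, 14.0 and 13.51 on day 2, against 4.49, 4.56, 4.48 and 4.62 in cadaveric liver, where it was not detected. It fell by 2-fold (adjusted p = 0.0099), and its relative Acot2 fell by 1.83 log2 units.

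Of 32 fatty acid synthesis and handling genes 10 were higher and 6 lower, with a median log2 change of 0.03, and 16 were not called. Scd2, a stearoyl-CoA desaturase that adult liver expresses little of, gave the smallest p of the genes named here. It read 12.87, 13.16, 13.39 and 13.66 on day 15, against 6.11, 6.14, 6.28 and 6.37 on day 2 and 7.21, 7.18, 7.39 and 8.29 in cadaveric liver (log2 change 7.04, SE 0.16, adjusted p = 4.0e-10), a 132-fold rise that all 4 constructs shared within 0.79 log2 units and that went far past liver. Lipoprotein lipase (Lpl), which is normally low in adult hepatocytes, read 12.16, 11.43, 10.18 and 8.89 on day 15, 5.74, 5.35, 5.11 and 4.84 on day 2 and 8.25, 8.36, 9.14 and 8.76 in cadaveric liver (log2 change 5.40, SE 0.56, adjusted p = 2.5e-05). Unlike Scd2 it was spread over more than 3 log2 units on day 15, and its mean passed liver but ended closer to it. The change was 4.28 without replicates 1 and 2 and 6.53 without replicates 3 and 4. Elovl2 and Fads2, which lengthen and desaturate polyunsaturated fatty acids, rose by 1.75 and 1.88 toward liver.

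Of 25 cholesterol genes 11 were higher (44.0%, against 21.4% of all genes), 1 was lower and 13 were not called, and 10 of the 12 changes led toward liver. Without day 15 replicates 3 and 4 the higher count was 8. The sterol exporter Abcg1 read 10.71, 9.68, 10.35 and 9.84 on day 15, against 5.96, 5.19, 5.59 and 5.36 on day 2 and 8.49, 8.07, 8.39 and 8.88 in cadaveric liver (log2 change 4.62, SE 0.29, adjusted p = 1.7e-06), and so passed liver. The synthesis enzymes Tm7sf2 and Msmo1 rose by 1.81 and 0.65 and stayed below liver. Stard4, a cytosolic sterol carrier, fell by 1.28 away from it.

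Genes of urea and amino acid metabolism were higher in 12 of 50 (24%) and lower in 11 of 50 (22%), with 11 closer and 12 farther. Those shares lie near the 21.4% and 27.7% of all genes. Of the 12 that rose 10 came closer, and of the 11 that fell 10 moved farther, a split that follows largely from a median of -1.34 relative to liver on day 2. Betaine-homocysteine methyltransferase (Bhmt), which remethylates homocysteine, read 12.17, 12.23, 13.22 and 12.91 on day 15, against 9.34, 9.71, 8.80 and 9.85 on day 2 and 13.49, 13.40, 13.72 and 13.57 in cadaveric liver (log2 change 3.21, SE 0.26, adjusted p = 6.6e-06). Cystathionine gamma-lyase (Cth), which draws homocysteine away to cysteine, fell, with 9.84, 9.59, 10.11 and 10.03 on day 15, 11.60, 11.67, 11.17 and 11.32 on day 2 and 12.89, 13.28, 13.60 and 13.50 in cadaveric liver (log2 change -1.55, SE 0.17, adjusted p = 3.8e-05). In the urea cycle ornithine transcarbamylase (Otc) rose by 1.21 with overlapping values, and carbamoyl-phosphate synthase (Cps1) read 10.36, 10.55, 10.97 and 10.80 on day 15 and 11.16, 10.88, 10.89 and 11.43 on day 2 (adjusted p = 0.13). Without day 15 replicates 3 and 4 the list counted 7 higher and 14 lower.

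Of 21 glucose genes 5 were higher (23.8%, near the 21.4% of all genes), 4 were lower and 12 were not called, and the isoforms of phosphoenolpyruvate carboxykinase diverged. The cytosolic form Pck1, the classic gluconeogenic enzyme, read 10.23, 10.54, 10.34 and 9.17 on day 15, against 8.66, 7.84, 8.70 and 8.73 on day 2 and 13.59, 13.91, 13.82 and 13.46 in cadaveric liver (log2 change 1.59, SE 0.30, adjusted p = 0.0012), while the mitochondrial form Pck2 fell by 1.16 (adjusted p = 2.7e-05), each toward liver.

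Several glycolytic isoforms that predominate in other tissues were higher and farther from liver. Of 29 genes of glycolysis isoforms and the hypoxia response 10 were higher and 0 lower by limma (13 and 0 at an unadjusted p under 0.05, 9 and 0 by an ordinary analysis of variance), and all 10 ended farther from liver. Platelet phosphofructokinase (Pfkp) read 10.36, 10.22, 9.30 and 8.87 on day 15, against 6.64, 5.54, 5.13 and 5.43 on day 2 and 7.0, 6.27, 7.05 and 7.0 in cadaveric liver (log2 change 4.0, SE 0.37, adjusted p = 1.4e-05). Lactate dehydrogenase B (Ldhb), the heart isoform, read 9.44, 9.53, 10.57 and 10.10 on day 15, 7.15, 6.57, 7.17 and 7.06 on day 2 and 6.13, 6.28, 6.04 and 6.78 in cadaveric liver (log2 change 2.92, SE 0.24, adjusted p = 7.3e-06). Muscle phosphofructokinase (Pfkm) and aldolase A (Aldoa) rose by 1.47 and 1.05. The count was 8 without day 15 replicates 1 and 2 and 14 without replicates 3 and 4.

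The response to stress of the endoplasmic reticulum was lower in most of the genes measured for it. When unfolded proteins accumulate in that compartment, the sensors Atf6, Ire1 and Perk raise chaperones and the machinery that retrieves and degrades misfolded proteins, a demand that is high in a secretory cell. Of 35 genes tested 24 were lower (68.6%, against 27.7% of all genes) and 1 higher, the median log2 change was -0.57, and 21 of the 25 changes led toward cadaveric liver, while 10 genes were not called. The median gene of the list stood at 0.88 relative to liver on day 2, so most falls would lead closer. The lower count was 18 without day 15 replicates 1 and 2 and 24 without replicates 3 and 4. Derl3, a channel component of the degradation pathway, read 6.40, 7.69, 6.32 and 5.53 on day 15, against 10.32, 10.36, 10.29 and 10.11 on day 2 and 6.34, 4.68, 5.86 and 5.03 in cadaveric liver (log2 change -3.78, SE 0.42, adjusted p = 4.4e-05). The chaperone BiP (Hspa5) read 13.91, 14.11, 13.94 and 14.08 on day 15, 14.69, 14.72, 14.86 and 14.73 on day 2 and 14.03, 13.63, 14.01 and 13.82 in cadaveric liver (log2 change -0.74, SE 0.11, adjusted p = 0.00022) and did not differ from liver on day 15 (adjusted p = 0.31).

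Other members fell in the same way. The log2 change was -1.40 for Herpud1, which recruits ubiquitinated substrates, and -2.24 for Sdf2l1, a partner of BiP. It was -2.09 for the secreted chaperone Creld2, -0.94 for the lectin chaperone calnexin (Canx) and -0.98 for the apoptosis-linked factor Ddit3. Sel1l, the scaffold of the degradation complex, was an exception in its direction, since its day 2 level did not differ from liver (adjusted p = 0.35) and its fall took it below (log2 change -1.61, 8.41, 8.53, 8.30 and 8.31 on day 15, 9.70, 9.80, 10.17 and 10.33 on day 2, 9.98, 10.04, 9.84 and 9.43 in cadaveric liver). The only member that rose was Eif2ak3, the sensor Perk itself (log2 change 0.98, SE 0.13, adjusted p = 0.00015). Calreticulin (Calr) fell by 0.26, a call lost without day 15 replicates 1 and 2 (adjusted p = 0.083).

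Because 24 of these genes fell, the promoters of the list were searched for the 2 sequence elements known from this response. The sequences are those of RefSeq on the rat build GRCr8, from 250 bases before to 50 after each gene's start, and both strands were read. The ER stress response element, CCAAT and CCACG with 9 bases between them, was present in 22 of 33469 such promoters (0.0657%), in 14 of the 6910 tested genes with a promoter entry and in 8 of the 31 listed genes with an entry. It was found in 7 of the 20 listed genes that were lower, in 1 of the 10 not called and in 0 of the 1 that was higher. The list holds genes known for this response, so its share of matches does not bear on the fall. The second element, ATTGG and CCACG with 1 base between them, was present in 17 promoters (0.0508%) and in 3 of the 31, all lower. Of the 8 genes with the first element, 7 are shown with the matched letters in capitals and 10 bases on either side, on the strand that reads CCAAT first. Hsp90b1 here and Hyou1 further on hold a second match that is not shown.
Derl3: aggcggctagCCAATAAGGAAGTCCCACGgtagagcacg
Creld2: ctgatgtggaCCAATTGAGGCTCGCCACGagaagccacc
Hspa5: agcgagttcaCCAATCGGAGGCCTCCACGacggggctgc
Dnajc3: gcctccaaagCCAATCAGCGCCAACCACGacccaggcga
Hsp90b1: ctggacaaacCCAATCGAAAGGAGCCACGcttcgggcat
Calr: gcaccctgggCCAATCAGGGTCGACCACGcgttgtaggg
Xbp1: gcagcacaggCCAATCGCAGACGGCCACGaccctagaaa
The Derl3 stretch lies at chr20:12766591-12766629, with the element at positions -154 to -136 from the start of the gene and in reverse to it, and that of Hspa5 at chr3:38452963-38453001, with the element at -43 to -25 from its start and in the same direction. The 3 genes with the second element follow in the same way.
Herpud1: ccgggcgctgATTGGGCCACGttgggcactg
Hyou1: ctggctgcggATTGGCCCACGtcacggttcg
Dnajb11: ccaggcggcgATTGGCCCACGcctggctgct
Of the genes shown, Xbp1, the transcription factor that Ire1 activates by splicing, was the only one not called (log2 change 0.16). The log2 changes of the others were -3.78 for Derl3, -2.09 for Creld2, -1.43 for Hyou1, -1.40 for Herpud1, -0.74 for Hspa5, -0.65 for Dnajc3, -0.57 for Hsp90b1 and Dnajb11 and -0.26 for Calr.
A match describes these letters only, and genes of the list without a match, such as Sdf2l1 or Sel1l, fell as well.

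Most genes of cytosolic ribosomes and of RNA processing were lower too. Of 57 cytosolic ribosomal proteins 37 were lower (64.9%), 1 was higher and 19 were not called, with a median log2 change of -0.30 and a range of -0.90 to 1.04, and all 38 came closer to liver. With the median gene at 0.61 relative to liver on day 2, that follows largely from the starting level. Rpl3 read 14.11, 14.07, 14.0 and 14.14 on day 15, against 14.77, 14.79, 14.81 and 14.86 on day 2 and 13.91, 14.10, 14.10 and 14.14 in cadaveric liver (log2 change -0.73, SE 0.07, adjusted p = 1.7e-05). Rps2, Rps3 and Rpl7a had log2 changes of -0.86, -0.67 and -0.78. Ribosomal protein genes have many processed pseudogenes, so part of their signal may be shared. Of 64 splicing and RNA processing genes 43 were lower (67.2%), 6 were higher and 15 were not called. From a similar start, with the median gene at 0.60 relative to liver on day 2, 40 of the 49 changed genes came closer. Among them Srsf10, a splicing regulator, and Nhp2, which binds guide RNAs of ribosomal RNA modification, had log2 changes of -1.31 and -1.18.

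Of 74 genes of the mitochondrial ribosome and protein import 55 were lower (74.3%) and 1 higher, 34 of them closer and 22 farther. The import factor Timm8a1 read 7.46, 7.47, 7.19 and 7.15 on day 15, against 9.10, 8.92, 8.97 and 8.88 on day 2 and 7.94, 8.18, 7.98 and 7.74 in cadaveric liver (log2 change -1.65, SE 0.10, adjusted p = 1.7e-06), whereas Mrps5 left liver, with 8.75, 8.45, 8.70 and 8.69 on day 15, 9.70, 9.62, 9.77 and 9.69 on day 2 and 9.49, 9.93, 9.74 and 9.96 in cadaveric liver. Of 56 respiratory chain and ATP synthase genes 20 were lower (35.7%, against 27.7% of all genes), 4 were higher and 32 were not called, 9 closer and 15 farther, and the complex I subunit Ndufs7 fell by 0.77. The respiratory chain count depended on the day 15 pairs, with 6 lower without replicates 1 and 2 and 22 lower without replicates 3 and 4. Of 42 proteasome subunits 2 were higher (4.76%) and 5 lower (11.9%), both below the shares of all genes.

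**Figure D4:**
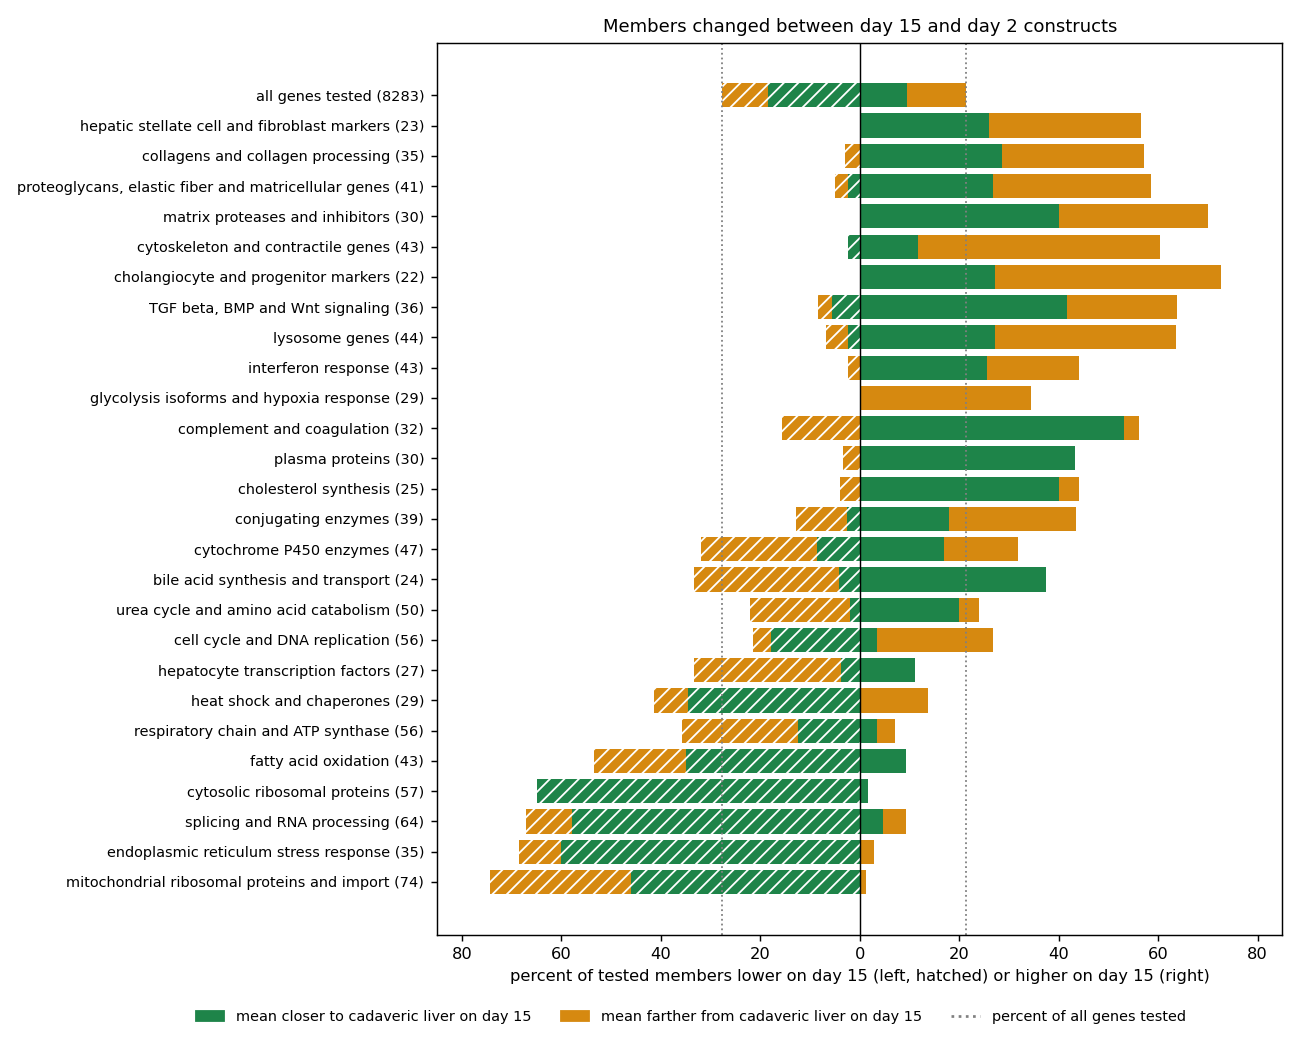
Percent of the tested members of 26 gene lists, and of all 8283 genes, that were higher on day 15 (bars to the right) or lower (hatched bars to the left) than on day 2 at an adjusted p under 0.05, with the number tested in parentheses. Green parts came closer to cadaveric liver and orange parts moved farther, and the dotted lines mark the 21.4% higher and 27.7% lower among all genes. Matrix, cytoskeleton and cholangiocyte lists reach 56.5% to 72.7% higher, and ribosomal, splicing and endoplasmic reticulum stress lists 64.9% to 74.3% lower.

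Heat shock proteins and cytosolic chaperones were lower in 12 of 29 and higher in 4. The small heat shock protein alpha B-crystallin (Cryab) was an exception, with 12.60, 13.24, 12.91 and 12.88 on day 15, against 11.22, 10.71, 11.19 and 11.38 on day 2 and 7.08, 6.72, 7.50 and 8.04 in cadaveric liver (log2 change 1.78, SE 0.22, adjusted p = 7.9e-05), and the chaperonin subunit Cct7 fell by 0.59.

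Of 27 hepatocyte transcription factors 3 were higher (11.1%, against 21.4% of all genes) and 9 lower (33.3%, against 27.7%), 4 closer and 8 farther. Without day 15 replicates 3 and 4 the counts were 6 higher and 9 lower. The xenobiotic receptor CAR (Nr1i3) read 5.64, 5.89, 5.74 and 5.98 on day 15, against 8.21, 7.71, 8.04 and 7.81 on day 2 and 7.19, 7.53, 6.62 and 7.65 in cadaveric liver (log2 change -2.13, SE 0.14, adjusted p = 2.1e-06), above liver on day 2 and below it on day 15. Foxa3 rose by 1.09 and no longer differed from liver (adjusted p = 0.68). Hnf4a, a central factor of hepatocyte identity, read 6.42, 5.84, 6.50 and 6.04 on day 15, 6.67, 7.06, 6.45 and 6.72 on day 2 and 7.62, 7.87, 7.41 and 7.69 in cadaveric liver, with overlapping days (log2 change -0.52, SE 0.17, adjusted p = 0.028). That call was lost when day 15 replicate 2 or 4 or day 2 replicate 2 or 4 was left out (adjusted p = 0.077, 0.063, 0.079 and 0.053) and without day 15 replicates 1 and 2 (0.097). Of 12 clock genes 1 was higher (8.33%) and 4 lower (33.3%, against 27.7% of all genes). The repressor Cry1 and the activator Bmal1 fell (log2 change -1.5 and -0.81), each toward cadaveric liver, in which Bmal1 itself read 4.95, 5.04, 7.46 and 4.83. The Bmal1 call was lost when all 5 groups shared the estimate of the spread (adjusted p = 0.096).

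Most markers of bile duct and progenitor cells were higher on day 15. Of 22 tested 16 were higher (72.7%, against 21.4% of all genes) and 0 lower by limma (16 and 0 at an unadjusted p under 0.05, 14 and 0 by an ordinary analysis of variance). The median log2 change was 1.25, and the difference between the day 15 pairs had a median of 0.00 over the list, with members that differed either way. Of the 16, 6 came closer to liver and 10 ended farther. Cd24, a surface glycoprotein of progenitor cells, read 11.14, 11.24, 11.97 and 11.61 on day 15, against 6.46, 6.11, 6.09 and 6.07 on day 2 and 7.27, 7.45, 7.34 and 7.44 in cadaveric liver (log2 change 5.31, SE 0.18, adjusted p = 1.8e-08). Keratin 19 (Krt19), the filament of bile duct cells, was detected on no day 2 array, and its values were 8.43, 9.14, 8.32 and 7.98 on day 15, 4.54, 4.85, 4.63 and 4.64 on day 2 and 7.24, 7.88, 8.36 and 8.45 in cadaveric liver, at least 10.9-fold higher on day 15 and level with liver (adjusted p = 0.13). Epcam, an adhesion molecule of biliary epithelium, was present on day 2 and rose away from liver, with 11.63, 11.68, 12.29 and 12.19 on day 15, 9.80, 9.49, 9.78 and 9.81 on day 2 and 8.78, 9.15, 9.19 and 9.62 in cadaveric liver (log2 change 2.23, SE 0.15, adjusted p = 2.1e-06). The secretin receptor (Sctr), found on cholangiocytes, rose by 3.48, Sox4 by 2.45 and keratin 7 (Krt7) by 0.60.

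Osteopontin (Spp1), a secreted phosphoprotein of bile duct and matrix-making cells, was detected on no day 2 array and read 12.07, 12.93, 10.72 and 10.58 on day 15, against 5.88, 6.23, 6.17 and 6.56 in cadaveric liver, at least 93.5-fold above day 2. Its log2 change was 5.95 without day 15 replicates 1 and 2 and 7.80 without replicates 3 and 4. In bulk tissue, more cells of a type and more RNA per cell cannot be told apart, here and in the matrix results that follow.

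Matrix genes were among the largest rises, and many differed between the day 15 pairs. Of 23 markers of hepatic stellate cells and fibroblasts 13 were higher and 0 lower by limma (16 and 0 at an unadjusted p under 0.05, 12 and 0 by an ordinary analysis of variance). As in other marker and matrix lists, genes at background on day 2 could hardly be called lower. The 0 lower is thus partly set by the filter under each of these tests. The median log2 change of the 23 was 1.99 (1.29 without replicates 1 and 2 of day 15, 2.36 without replicates 3 and 4). Of 35 collagens and collagen-processing genes 20 were higher and 1 lower (median 1.33, with 0.78 and 1.96 under the same omissions). Of 41 proteoglycan, elastic fiber and matricellular genes 24 were higher and 2 lower (median 1.25), 17 were higher without replicates 1 and 2 (median 0.74) and 30 without replicates 3 and 4 (median 1.85). On day 15 the median stellate and fibroblast gene lay 1.66 log2 units higher in replicates 1 and 2 than in replicates 3 and 4, and the median collagen gene 1.75 higher. Both pairs nevertheless lay above day 2 for the genes named here, unless stated. Secreted protein acidic and rich in cysteine (Sparc), a collagen chaperone of matrix, read 12.72, 13, 10.92 and 9.91 on day 15, against 5.58, 4.83, 4.50 and 4.58 on day 2 and 10.31, 10.80, 10.81 and 11.28 in cadaveric liver (log2 change 6.77, SE 0.59, adjusted p = 9.0e-06). Its change was the largest move toward liver, 5.54 without replicates 1 and 2 and 7.99 without replicates 3 and 4.

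Type I collagen depended on the pair. The alpha 2 chain (Col1a2) read 14.25, 14.62, 12.11 and 11.59 on day 15, against 7.35, 7.30, 5.38 and 6.25 on day 2 and 11.05, 11.64, 11.74 and 12.12 in cadaveric liver (log2 change 6.57, SE 0.67, adjusted p = 2.4e-05), so that replicates 1 and 2 stood above liver and replicates 3 and 4 at its level. Its log2 change was 5.28 without replicates 1 and 2 and 7.87 without replicates 3 and 4. The probe for the alpha 1 chain (Col1a1) was dim and detected on no day 2 array, with 8.33, 9.41, 5.0 and 5.46 on day 15, 4.39, 4.47, 4.41 and 4.54 on day 2 and 4.73, 5.60, 5.49 and 5.73 in cadaveric liver. Its log2 change was 2.6 (adjusted p = 0.02), 0.78 and closer to liver without replicates 1 and 2, and 4.42 and farther without replicates 3 and 4. Leaving out replicate 1 alone gave 2.17 and lost the call (adjusted p = 0.059), and leaving out replicate 2 gave 1.81 and replicate 3 gave 3.28. Type III collagen (Col3a1), undetected on day 2, read 10.22, 10.65, 8.06 and 7.53 on day 15 and 8.49, 8.86, 9.21 and 9.46 in cadaveric liver, at least 17-fold above day 2.

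Whether the collagen list moved toward or away from liver also turned on the pair. With all 4 day 15 constructs 10 of its called genes came closer and 11 moved farther, without replicates 1 and 2 the counts were 14 and 5, and without replicates 3 and 4 they were 7 and 20. Col8a1 and the galectin Lgals1, which ended farther with all 4 constructs (log2 change 6.47 and 5.96), ended closer without replicates 1 and 2 (5.11 and 4.58). Desmin (Des), the intermediate filament of stellate and muscle cells, basement membrane collagen Col4a1 and the protease inhibitor Timp2, which came closer with all 4, ended farther without replicates 3 and 4 (log2 changes 4.09, 6.04 and 3.40).

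**Figure D5:**
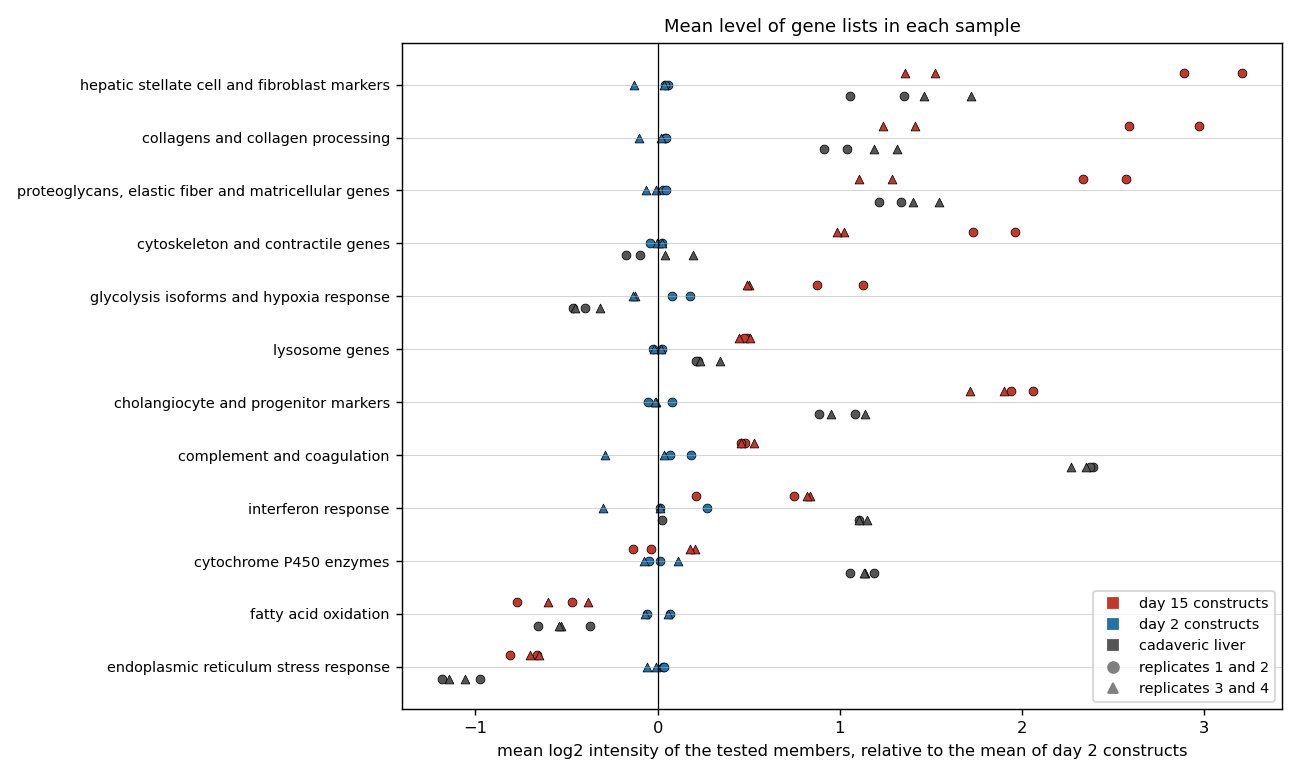
Mean log2 intensity of the tested members of 12 gene lists in each sample, relative to the mean of the day 2 constructs (horizontal axis), with day 15 constructs in red, day 2 constructs in blue and cadaveric livers in grey, replicates 1 and 2 as circles and 3 and 4 as triangles. In the stellate cell, collagen and proteoglycan lists day 15 replicates 1 and 2 stand above replicates 3 and 4, which lie near cadaveric liver, whereas in the cholangiocyte, lysosome and complement lists the 4 day 15 constructs lie together.

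Matricellular and growth factor-binding genes included several that were at or near background in both day 2 constructs and liver. Ccn3, a signaling protein of the matrix, was detected on no day 2 array and read 12.59, 12.88, 10.12 and 9.75 on day 15, against 5.05, 4.75, 6.17 and 5.55 in cadaveric liver, at least 79.1-fold above day 2 (log2 change 5.33 without replicates 1 and 2, 8.12 without replicates 3 and 4). Periostin (Postn), a product of activated fibroblasts, was detected on no array of day 2 or liver and read 11.39, 12.80, 8.06 and 8.45 on day 15, at least 35.5-fold above day 2 (log2 change 5.73, 4.85 without replicate 2, 6.43 without replicate 3, 3.81 without replicates 1 and 2 and 7.65 without replicates 3 and 4). Ltbp2, which binds fibrillin, read 9.26, 10.20, 8.26 and 8.59 on day 15, at least 16.5-fold above day 2. These 3 ended farther from liver. The BMP-binding protein Fstl1 (6.10), the calcification inhibitor Mgp (4.37), Ccdc80 (4.92), the IGF-binding proteins Igfbp7 (4.73) and Igfbp3 (3.61) and extracellular superoxide dismutase (Sod3, 5.58) ended closer to it, with log2 changes as given.

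Not every fibroblast gene followed. Decorin (Dcn), abundant in liver matrix cells, was detected on no construct array of either day and on all 4 of cadaveric liver, with 4.66, 4.71, 4.33 and 4.37 on day 15, 4.45, 4.69, 4.43 and 4.41 on day 2 and 8.54, 8.95, 8.59 and 9.03 in cadaveric liver. The receptor Pdgfra and lumican (Lum) were not called (log2 change 0.25 and 0.29, adjusted p = 0.39 and 0.18), nor was the surface protein Thy1 (0.89, adjusted p = 0.051). Without replicates 3 and 4 all 3 were higher (0.61, 0.64 and 1.48, adjusted p = 0.045, 0.0011 and 0.0024), and without replicates 1 and 2 none was (adjusted p = 0.73, 0.72 and 0.47). Reelin (Reln), a product of quiescent stellate cells, rose by 1.99 toward liver. Summed over the 10 defining fibroblast markers with a probe, the level was 12.27 to 15.16 on day 15, 9.05 to 9.20 on day 2 and 12.09 to 12.98 in cadaveric liver. Of these 10 markers 6 were higher, 5 were undetected on day 2, and Dcn was undetected on both days.

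Proteases that remodel matrix and their inhibitors were higher in 21 of 30 (70.0%) and lower in 0 by limma (22 and 0 at an unadjusted p under 0.05, 19 and 0 by an ordinary analysis of variance). The metalloprotease Adamts1 read 11.70, 11.55, 9.47 and 9.03 on day 15, against 5.95, 5.76, 5.25 and 5.46 on day 2 and 8.79, 9.07, 8.42 and 8.63 in cadaveric liver (log2 change 4.83, SE 0.56, adjusted p = 5.3e-05). The serine protease Prss23 rose by 3.99 (10.77, 11.59, 10.48 and 10.39 on day 15, 6.83, 6.69, 6.76 and 7.0 on day 2, 9.20, 8.94, 9.39 and 9.53 in cadaveric liver).

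Cytoskeletal genes mostly ended farther from liver. Of 43 genes 26 were higher (60.5%) and 1 lower, and 21 of the 27 ended farther. Cardiac troponin T (Tnnt2), a regulator of the thin filament of heart muscle, had the largest rise of the comparison. It was detected on no day 2 array and read 13.86, 13.62, 11.24 and 9.78 on day 15, against 4.48, 4.43, 4.51 and 4.45 on day 2 and 4.88, 4.75, 4.50 and 5.18 in cadaveric liver (log2 change 7.66, SE 0.74, adjusted p = 1.7e-05), at least 137-fold. Its log2 change was 6.04 without replicates 1 and 2 and 9.27 without replicates 3 and 4. Smooth muscle gamma actin (Actg2, 5.56), transgelin (Tagln, 5.09) and the LIM protein Pdlim3 (4.85) rose with the same split. Gelsolin (Gsn), which severs actin, did not share it, with 7.77, 7.77, 7.74 and 7.57 on day 15, 5.20, 5.12, 5.36 and 5.23 on day 2 and 6.24, 6.73, 5.90 and 5.86 in cadaveric liver (log2 change 2.49, SE 0.12, adjusted p = 3.2e-07). Vimentin (Vim) rose by 2.10 and alpha-tubulin Tuba1a by 3.18. The annexins Anxa5 and Anxa4, calcium-dependent membrane binders of epithelia, rose by 2.90 and 1.66 with an SE of 0.15 and 0.10, and both moved away from liver.

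Signaling genes of the TGF beta, BMP and Wnt families were higher in 23 of 36 and lower in 3, 17 of the 26 closer to liver. The ligand Tgfb2 read 8.90, 8.97, 8.72 and 8.51 on day 15, against 7.77, 7.28, 7.22 and 7.51 on day 2 and 5.19, 5.39, 5.90 and 6.45 in cadaveric liver (log2 change 1.33, SE 0.14, adjusted p = 3.4e-05), and so rose away from liver in both pairs. The chemokine Cxcl12, made by stromal cells, read 11.23, 11.15, 8.35 and 8.15 on day 15, 5.03, 5.63, 5.23 and 5.08 on day 2 and 12.65, 12.42, 12.56 and 12.50 in cadaveric liver (log2 change 4.48, SE 0.64, adjusted p = 0.00021), among the largest moves toward liver, 3.01 without replicates 1 and 2 and 5.94 without replicates 3 and 4. Ccl2, a monocyte attractant, was detected on no day 2 array and read 8.11, 10.74, 6.97 and 7.09 on day 15, at least 9.18-fold higher, with replicate 2 well above the rest (log2 change 3.54, 2.71 without replicate 2, 2.35 without replicates 1 and 2 and 4.74 without replicates 3 and 4). The decoy receptor Il1r2 fell by 2.49 toward liver, and Fkbp5, a glucocorticoid target, rose by 1.47 away from it.

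Interferon-stimulated genes were higher in 19 of 43 (44.2%) and lower in 1, 11 of the 20 closer and 9 farther. Mx1, an antiviral GTPase, read 9.11, 7.79, 9.70 and 9.35 on day 15, against 6.0, 6.46, 5.16 and 5.88 on day 2 and 8.73, 5.39, 8.55 and 8.64 in cadaveric liver (log2 change 3.11, SE 0.56, adjusted p = 0.00086). Cadaveric replicate 2 stood apart here, as it did for Oas1a (7.46, 4.64, 7.88 and 7.74) and Irf7 (9.48, 6.84, 9.50 and 9.71), so the distance of these genes from liver rests partly on that sample. Lgals3bp, a secreted glycoprotein, rose by 2.67, the GTPase Gbp2 by 1.71, the oligoadenylate synthetase Oas1a by 1.86 and the transcription factor Irf7 by 1.66. The list was higher in 20 genes without day 15 replicates 1 and 2 but in only 9, with 4 lower, without replicates 3 and 4, where Irf7 also lost its call and ended closer to liver (log2 change 1.31, adjusted p = 0.084).

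The core letters of the interferon-stimulated response element, GAAA repeated after 2 bases, on either strand, were found in 24 of the 35 listed genes that had a promoter entry, against 1312 of 33469 promoters (3.92%). They were present in 10 of 15 genes that were higher and in 13 of 19 that were not called, so the letters were about as frequent among genes that did not pass the test. The stretches of 4 genes that rose are shown, on the strand that reads the motif, with it in capitals.
Lgals3bp: gtgttttctgGAAATCGAAActagactagg
Gbp2: ttaagacaatGAAAGTGAAActaaaaaact
Irf7: tgcgtctcggGAAAATGAAAcctaaactgt
Oas1a: cccctctcggGAAATGGAAActgaaaatct
The Lgals3bp stretch lies at chr10:104127879-104127908 and that of Gbp2 at chr2:234005686-234005715. Oas1a holds 2 overlapping matches, of which the first is in capitals.

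Lysosomal genes were higher in 28 of 44 (63.6%) and lower in 3, with little difference between the day 15 pairs (median -0.04). Sialidase 1 (Neu1), which trims sialic acid from glycoproteins, read 10.20, 10.13, 10.40 and 10.50 on day 15, against 8.65, 8.87, 8.66 and 8.65 on day 2 and 8.65, 8.54, 8.26 and 8.13 in cadaveric liver (log2 change 1.60, SE 0.11, adjusted p = 2.1e-06) and left liver, whereas beta-glucuronidase (Gusb) read 10.64, 10.63, 10.76 and 10.46 on day 15, 9.60, 9.51, 9.48 and 9.50 on day 2 and 10.68, 10.64, 10.55 and 10.59 in cadaveric liver and matched it. Cathepsin D (Ctsd) and the cholesterol carrier Npc2 rose by 1.23 and 1.41, past liver. Antioxidant genes of the NRF2 list were higher in 12 of 40 and lower in 6, and the glutathione peroxidases Gpx2 and Gpx3 rose by 2.77 and 4.61, both ending farther from liver.

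Of 56 cell cycle genes 15 were higher (26.8%) and 12 lower (21.4%), near the 21.4% and 27.7% of all genes. The cyclin Ccnd1, which drives entry into the cycle, rose by 2.23 (SE 0.27, adjusted p = 7.7e-05), while the replication factors Rfc4 and Lig1 fell (log2 change -1.14 and -1.03). Rfc4 read 9.29, 9.26, 9.26 and 9.25 on day 15, against 10.46, 10.32, 10.42 and 10.43 on day 2 and 9.20, 9.22, 9.19 and 9.31 in cadaveric liver, a fall to a level that did not differ from liver (SE 0.07, adjusted p against liver = 0.79). The higher count was 5 without day 15 replicates 1 and 2 and 18 without replicates 3 and 4.

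Other cell types of the liver were read from wider lists and from their defining markers. A wider endothelial list had 34 genes with a probe, of which 18 passed the filter by detection in constructs of any day. Of these 18, 8 were higher, all closer to liver, and 0 lower by limma (10 and 2 at an unadjusted p under 0.05, 6 and 0 by an ordinary analysis of variance). Thrombomodulin (Thbd, at least 4.47-fold) and Esam (0.89) were among the 8, while the 4 defining endothelial markers with a probe were undetected on day 15. The mean level of the 18 was 5.45 to 6.05 on day 15, 5.07 to 5.18 on day 2 and 7.38 to 7.58 in cadaveric liver. The Kupffer cell markers C1qa and Vsig4 read 5.50, 5.38, 5.08 and 4.76 and 6.78, 6.53, 6.33 and 4.57 on day 15, against 5.42, 5.26, 5.02 and 5.04 and 6.78, 6.79, 4.86 and 5.16 on day 2 and 10.98, 10.18, 10.98 and 11.34 and 10.27, 9.46, 10.27 and 9.94 in cadaveric liver. Cd163, Marco and Adgre1 were detected on no construct array, and of the 4 Kupffer markers tested 0 were called by limma, also at an unadjusted p under 0.05 and by an ordinary analysis of variance. C1qb, detected on every day 2 array, read 5.96, 5.99, 5.39 and 4.55 on day 15, 7.10, 6.88, 5.56 and 6.01 on day 2 and 11.66, 11.07, 11.56 and 11.87 in cadaveric liver. The summed level of the 7 with a probe was 7.34 to 8.41 on day 15, 7.63 to 8.84 on day 2 and 12.60 to 13.48 in cadaveric liver. Of 11 genes of a wider Kupffer cell list Cd14 was higher (0.65) and Mpeg1 lower (-0.43), and neither was called without day 15 replicates 1 and 2. Of 10 mesothelial genes 7 were higher, with a mean level of 7.74 to 8.02 on day 15, 6.97 to 7.12 on day 2 and 7.03 to 7.53 in cadaveric liver, though hepatocytes or bile duct cells also express several of these, such as Krt8 and Krt19. The mesothelial factor Wt1 had a log2 change of 0.40 at background level (adjusted p = 0.014), 0.25 without day 15 replicates 1 and 2 (adjusted p = 0.11) and 0.55 without replicates 3 and 4, while Msln was undetected in constructs. Blood cell markers summed to 6.83 to 7.0 on day 15, 6.87 to 7.16 on day 2 and 13.21 to 14.21 in cadaveric liver, in which hemoglobin (Hbb) averaged 13.68. The share of these cell types in the distance between constructs and liver was not tested.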

How the data were processed

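Gene expression of 19 rat samples was measured on 24 bead arrays, of which the 11 arrays of 8 constructs (day 15 and day 2) are compared here. The authors deposited raw bead intensities per probe with a detection p-value, both as written by the scanner software, and log2 values, for which they corrected the intensities for background and quantile normalized them with limma (version not given in the sources used here). A deposited copy of the log2 values without sample names was not used.

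Technical duplicate arrays were averaged with their construct. Probes needed a deposited detection p-value below 0.05 in 3 or more constructs, counted over day 2, day 15 and day 28 together. Each of 8283 genes was read from its brightest probe. Names came from the platform annotation, which gave 13793 probes a gene and left 8730 unnamed. Changes are day 15 minus day 2, from limma 3.58.1 in R 4.3.3 (lmFit and eBayes, two-sided, Benjamini-Hochberg over all genes) with day 2, day 15 and day 28 constructs in the fit and a threshold of 0.05. Distances from cadaveric liver used group means, and tests against it a fit of all 5 groups. Where no array of a day detected a probe, a bound ("at least") replaced the fold, set against the lowest detected value of those arrays.

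The constructs, the 46 gene lists and the tests were chosen with earlier results of these data known. Genes named are up to 4 called members of each list with the lowest adjusted p, the 10 largest changes in each direction and the 6 largest moves toward and away from liver (called, without overlap and detected on every array of the higher day), Alb, Cyp2c11, Cyp2c12 and the defining markers of other cell types. Genes named beside these, such as Hspa5, Xbp1, Hyou1, Acot1, Irf7, Ccl2, Sctr, Cd14 and Mpeg1, were chosen after their values were seen. The labels number the constructs alike on both days but name no shared source, and the fit used no pairing. Same-numbered constructs correlated in their deviations from the group mean at 0.18, 0.03, 0.14 and 0.16, and a fit with the number as a block was an alternative. The replicate numbers in the table of intensities differed from those of the sample records on 14 of 24 arrays, 3 of them of day 15 and 0 of day 2, always within a group, and those of the records were used. The correlations of same-numbered constructs and the block fit depend on that choice. Fits were tested on simulated data. No further depth measure exists for arrays, whose number limits the precision.

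Alternatives were neqc run again from the intensities (offset 16), no background correction, other detection filters, every named probe, and day 2 and day 15 alone or all 5 groups in the fit. Others were array quality weights, the replicate number as a block, ordinary analysis of variance, the first array of each construct, each construct left out, day 15 constructs left out in pairs and isolated hepatocytes as the reference. Ordinary analysis of variance here means the contrast of day 15 with day 2 without moderation, at an adjusted p under 0.05. It is not the test of the methods, which looked for a difference between any 2 time points. One promoter sequence is not reported here.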

Additional observations from a re-analysis of the deposited data

Results flagged for a closer look

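In 16 of 336 groups of 4 constructs the highest or lowest value stood apart from the other 3 by a gap that took most of the group's range, where about 1 in 20 is expected by chance. The number after each gene is that gap as a share of the range. On day 15, Cyp7a1 was low in replicate 1 (0.856), Irf7 low in replicate 2 (0.932), Gsn low in replicate 4 (0.857), Creld2 high in replicate 2 (0.867) and Rfc4 high in replicate 1 (0.857). On day 2, low values were those of C6 in replicate 3 (0.878), Gsto1 in replicate 1 (0.894), Pck1 in replicate 2 (0.914), Epcam in replicate 2 (0.914) and Postn in replicate 4 (0.890). High values on day 2 were those of Cd24 in replicate 1 (0.905), Dcn in replicate 2 (0.883), Lum in replicate 3 (0.852), Thy1 in replicate 4 (0.841), Neu1 in replicate 2 (0.953) and Pbsn in replicate 1 (0.857). For Rfc4, Postn and Gsto1 the whole range was 0.04, 0.07 and 0.11 log2 units, so the gap is small in size.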

How the results depend on the processing

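Every alternative to the count of 4065 changed genes lay between 3127 and 4341, within 1.5 times of it. Leaving out 1 construct at a time gave 3532 to 4132 changed genes, 1547 to 1781 higher and 1965 to 2351 lower, with 2011 to 2279 closer to cadaveric liver and 1486 to 1853 farther. Among changed genes that had differed from cadaveric liver on day 2, 2187 came closer and 719 moved farther. That selection uses the day 2 distance, which favors genes that came closer. Among changed genes whose distance moved by at least 1 log2 unit, 342 came closer and 327 moved farther. The lean of 2318 closer against 1747 farther was thus nearly absent among the larger moves. With the replicate number as a block the count was 3987 (1739 higher, 2248 lower), 3827 of the 4065 calls were kept in the same direction, and of the 158 called genes among those named only Hnf4a lost its call (adjusted p = 0.057). Hnf4a was also lost by ordinary analysis of variance and with the first array of each construct (0.055 and 0.073), and Col1a1 by ordinary analysis of variance (0.055).

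None of the 158 called genes among those named changed sign under any alternative run, and of all 4065 only 6 did, when every named probe was fitted and another probe of the gene was read. Signs turned for genes that were not called. Dcn gave -0.0095 without background correction, -0.056 with the first arrays, -0.147 without day 15 constructs 1 and 2, and -0.044 to 0.085 with a construct left out. C1qa gave 0.075 with array weights, 0.253 without day 15 constructs 3 and 4, and -0.111 to 0.135 with a construct left out. Vsig4 gave -0.447 without day 15 constructs 1 and 2 and -0.189 to 0.65 with a construct left out. Pdgfra and Lum gave -0.113 and -0.060 without day 15 constructs 1 and 2. Thy1 was called without background correction, with all 5 groups, with array weights, and without day 15 replicate 4 (adjusted p = 0.046, 0.014, 0.010 and 0.010), and the secretory protease inhibitor Serpina1, not called at 0.086, passed without background correction, without the detection filter and by analysis of variance.

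Without background correction 45 of the 158 changes moved by over 1.5 times, and the median change of all genes was -0.047 against -0.069, with 3927 of the 4065 calls kept. Without day 15 constructs 1 and 2, and likewise without constructs 3 and 4, 36 of the 158 moved by over 1.5 times, mainly matrix and contractile genes. With 1 construct left out such moves were seen for 7 genes without day 15 replicate 2 (Col1a1 1.81, Postn 4.85, Ccdc80 4.31, Lgals1 5.36, Actg2 4.94, Pdlim3 4.22, Ccl2 2.71), for 2 without replicate 3 (Col1a1 3.28, Postn 6.43) and for 5 without replicate 4 (Lpl 5.99, Mgp 4.96, Ccdc80 5.53, Tnnt2 8.44, Actg2 6.15). The causes were not tested. Probes near background give compressed changes, so the size of a change from an undetected day is a bound only.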

Other observations

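Counts of further lists, and of the mesothelial list again, are to be read against 21.4% higher and 27.7% lower among all genes. Of 10 mesothelial markers 7 were higher and 0 lower by limma (7 and 0 at an unadjusted p under 0.05), of 26 integrin and basement membrane genes 13 were higher and 1 lower, and of 36 growth factor signaling genes 15 were higher and 3 lower. Immediate early and stress kinase genes were higher in 11 of 32 (7 without day 15 replicates 1 and 2) and lower in 6. Egr1, an early growth response factor, read 9.23, 9.58, 8.97 and 9.32 on day 15, against 7.54, 7.71, 7.57 and 7.21 on day 2 and 7.48, 8.71, 9.30 and 9.43 in cadaveric liver, and ended closer to liver (log2 change 1.76, SE 0.15, adjusted p = 7.0e-06). MHC class I and II genes were higher in 3 of 20 (15%) and lower in 5 (25%), with 2 of the 8 calls kept without day 15 replicates 1 and 2. Iron and heme genes were higher in 3 of 28 (10.7%) and lower in 5 (17.9%), with 8 lower without day 15 replicates 3 and 4. Both lists lay below the shares of all genes in either direction. Probasin (Pbsn), a lipocalin best known from rat prostate, was detected on every construct array and on no cadaveric array, and fell (log2 change -2.41, SE 0.40, adjusted p = 0.0005).

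Probes without a gene name changed about as often as named ones. Of 3126 that passed the filter 441 were higher and 1008 lower on day 15 (46.4%), against 1796 and 2326 of 8457 named probes (48.7%).

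The replicate numbers carried a weak pattern across days. Deviations from the group mean correlated at 0.03 to 0.18 between day 15 replicates 1 and 2 and day 2 replicates 1 and 2 and at 0.09 to 0.16 between replicates 3 and 4 of the 2 days. Between replicates 1 and 2 of either day and replicates 3 and 4 of the other the values were -0.23 to -0.05. Deviations from a group mean cancel out within a day, so positive values within pairs bring negative ones between them. The negative values are therefore no separate observation. By the positive values, and under the numbers of the sample records, the same pairs stood weakly together on both days. The labels name no batch, donor or isolation that the numbers could stand for. In the table of intensities day 15 records 1 and 2 match columns numbered 4 and 1, and records 3 and 4 match columns numbered 3 and 2. Under those numbers the day 15 pairs would not line up with the day 2 pairs.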
